A study of Mus musculus with 4 samples.

Results

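Nonclassical monocytes of the mouse nasal mucosa were taken here as leukocytes with UMIs of Ace, the angiotensin-converting enzyme, and of Adgre4, an adhesion G protein-coupled receptor of myeloid cells. A UMI (unique molecular identifier) marks 1 counted mRNA molecule. Cells were kept with at least 500 UMIs, at least 200 genes and under 10% mitochondrial UMIs. A kept cell was a member when it had at least 2 UMIs of Ace plus Adgre4 and at least 1 UMI of Csf1r, Cx3cr1 or Ear2. It also had under 2 UMIs of the macrophage complement genes C1qa, C1qb and C1qc, under 3 of the progenitor genes Mpo, Elane and Prtn3, and 0 of the lineage genes Cd3e, Cd79a, Cxcr2 and Siglech. This gave 1094 members among 72320 kept cells of 79132 deposited barcodes. The members were thus chosen by the measured UMIs of these genes, whose levels are given as a description only.

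Nonclassical monocytes circulate in blood, where they crawl along the vessel wall and survey it, and in the mouse they arise in large part from classical, Ly6C-high monocytes. They are known for dependence on the nuclear receptor Nr4a1, for low Ly6c2, and for the integrin LFA-1, whose alpha chain is encoded by Itgal. Classical monocytes, by contrast, carry Ccr2 and enter inflamed tissue, where they can become macrophages.

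The cells had been isolated for CD45, a surface protein of leukocytes, from nasal mucosa of C57BL/6 mice aged 8 weeks, with magnetic sorting named for the samples and fluorescence-activated sorting in the design text. The study concerns allergic rhinitis induced with ovalbumin (OVA), which its methods describe as sensitisation with OVA and alum followed by OVA in the nose, and ribavirin, an antiviral nucleoside analogue given as a spray. There were 4 groups with 1 library each, namely Vehicle (vehicle without OVA), Vehicle-OVA (vehicle with OVA), Ribavirin (ribavirin without OVA) and Ribavirin-OVA (ribavirin with OVA). Rows of 4 values below keep this order of the libraries. The number of mice behind a library is not given, so differences have no check against variation among mice. Intervals are exact 95% limits, and what they hold is counting error alone.

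The members numbered 382 in Vehicle, 162 in Vehicle-OVA, 375 in Ribavirin and 175 in Ribavirin-OVA. Their median depth was 6522.5, 9271.5, 7033 and 8078 UMIs in that order, against 4685, 3412, 5065 and 5032.5 UMIs in all other kept cells. The libraries shared 636 barcodes. Of the members' barcodes, 20 also occurred in another library and 0 occurred in members of different libraries. A doublet caller marked 10 members of Vehicle, 3 of Ribavirin and 0 of each OVA library. It marked only 5.53%, 1.67%, 3.14% and 0.612% of the kept cells against expected rates of 11.3%, 7.66%, 8.56% and 4.12%, so doublets remained.

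A group of members carried genes of other tissue cells. With at least 2 UMIs of the epithelial genes Epcam, Krt5, Krt8 and Krt18, or of the endothelial genes Cdh5, Kdr and Egfl7, 50 members were marked, 41 by the epithelial genes and 9 by the endothelial genes. They were deep cells (median 13114.5, 27275, 13346.5 and 18744 UMIs) and held 7.21%, 15.5%, 8.67% and 26.5% of the members' UMIs. Of the 50, 36 had a UMI of Ptprc, which encodes CD45. Ace is also an endothelial gene, and 24 of the 50 had a UMI of Adgre4. The other 1044 cells are called unmarked members, and since this split was made after the data were seen, counts are given for all members and for the unmarked ones.

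Promoters of the genes that define the cells are shown for Adgre4 and Ear2, which held a match to motifs of factors known from monocytes. The motifs searched on both strands were AAAGGTCA, the response element bound by NR4A1, TTGCNNAA, a C/EBP motif, and GAGGAAGT, a PU.1 motif. The windows run from 250 bases before to 50 bases after the annotated start (RefSeq, GRCm38.p6), and capitals mark a match. The Adgre4 window lies at chr17:55749734-55750033 (plus strand) and the Ear2 window at chr14:44102404-44102703 (plus strand).
Adgre4: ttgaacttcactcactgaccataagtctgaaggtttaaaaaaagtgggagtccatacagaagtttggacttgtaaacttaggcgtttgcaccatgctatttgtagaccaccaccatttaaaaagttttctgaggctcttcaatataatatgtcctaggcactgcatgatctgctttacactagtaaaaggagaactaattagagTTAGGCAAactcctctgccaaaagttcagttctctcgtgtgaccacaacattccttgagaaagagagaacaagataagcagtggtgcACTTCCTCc
Ear2: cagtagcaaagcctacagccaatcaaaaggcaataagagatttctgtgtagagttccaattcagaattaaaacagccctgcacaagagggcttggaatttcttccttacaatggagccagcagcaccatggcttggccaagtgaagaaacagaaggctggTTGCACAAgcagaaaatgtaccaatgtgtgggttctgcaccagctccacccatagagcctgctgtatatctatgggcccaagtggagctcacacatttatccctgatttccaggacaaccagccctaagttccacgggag
In Adgre4 the first capitals match the C/EBP motif and the second the PU.1 motif, and in Ear2 the capitals match the C/EBP motif. Promoters were looked up for 4 rule genes (Ace, Adgre4, Ear2, Cx3cr1) and the 15 genes that stood highest over classical monocytes, and 15 of the 19 had an entry. Of these 15 genes, 2 held the C/EBP motif, 1 the PU.1 motif and 0 the NR4A1 element. Of all 32851 promoter windows of this length, 10.8% held the C/EBP motif, 3.2% the PU.1 motif and 1.51% the NR4A1 element. A match is a description of letters and not of a bound site.

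Of the 1094 members, 57.6% (54.6 to 60.5) had UMIs of both Ace and Adgre4, 13.2% of Ace alone and 29.3% of Adgre4 alone. Both were found together in 49.0%, 68.5%, 54.9% and 72.0% of the members of the 4 libraries, and thus more often in the OVA libraries. Members of Vehicle-OVA and Ribavirin-OVA were also deeper (median 9271.5 and 8078 UMIs) than those of Vehicle and Ribavirin (6522.5 and 7033). The part of depth in these shares was not tested. Csf1r, the receptor for the growth factor M-CSF, was found in 97.0% of them, Cx3cr1, the fractalkine receptor, in 58.7%, and Ear2, an eosinophil-associated ribonuclease, in 43.8%. Ear2 belongs to a family of near-identical genes among which reads can be split, so its counts are uncertain. The median of Ace plus Adgre4 was 3 UMIs in Vehicle and in Ribavirin, 6 in Vehicle-OVA and 9 in Ribavirin-OVA.

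The threshold of 2 UMIs cut a continuum. Outside the rule by 1 UMI stood 553 cells, and inside it 308 cells had exactly 2 UMIs of Ace plus Adgre4, 182 had 3 and 604 had 4 or more. Treml4, a receptor of nonclassical monocytes and dendritic cells that the rule does not use, was found at 32.9 CPM in the cells with 1 UMI, at 58.0 with 2, at 72.3 with 3 and at 226 with 4 or more. CPM is a gene's UMIs, summed over the cells, per 1000000 UMIs of those cells. Spn (CD43) was at 32.5, 61.9, 86.2 and 305 CPM, the scavenger receptor Cd36 at 14.5, 19.6, 18.4 and 126 CPM, and Nr4a1 at 559, 693, 779 and 1351 CPM in the same order. Ly6c2 was at 934, 844, 1004 and 574 CPM. The 4001 cells with 0 UMIs of both had Ly6c2 at 536 CPM. These sums mix libraries, and the OVA libraries gave 244 of the 604 cells with 4 or more UMIs but 97 of the 553 with 1. Within each of the 4 libraries, Treml4, Spn, Cd36 and Nr4a1 were also highest in the cells with 4 or more UMIs, Treml4 at 230, 217, 171 and 287 CPM there and at 42.3, 29.5, 27.2 and 20.8 CPM in the cells with 1 UMI. Among the cells with at least 1 UMI, Ly6c2 was lowest in those with 4 or more in Vehicle and Vehicle-OVA. This was not so in Ribavirin (867 CPM, against 845 with 2) or Ribavirin-OVA (392, against 314). The Vehicle cells with 0 UMIs had Ly6c2 at 712 CPM, against 723 CPM in those with 4 or more.

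**Figure D1:**
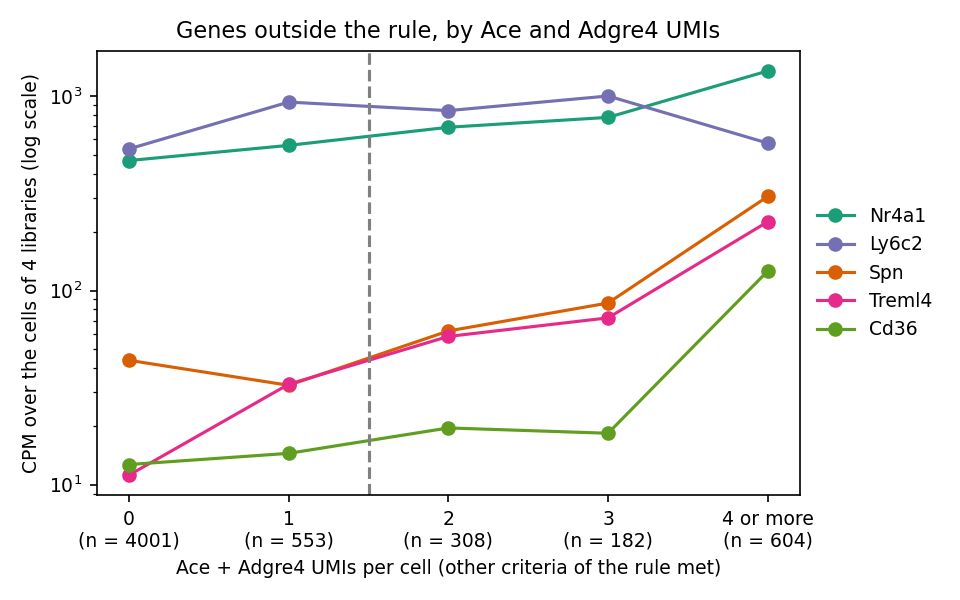
CPM (log scale) of 5 genes outside the rule, summed over the cells of 4 libraries that met the other criteria, by the number of Ace plus Adgre4 UMIs per cell, with the dashed line at the threshold. Nr4a1, Spn, Treml4 and Cd36 are highest in the 604 cells with 4 or more UMIs, at 1351, 305, 226 and 126 CPM, while Ly6c2 is at 574 CPM there and between 844 and 1004 CPM in the cells with 1 to 3 UMIs.

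The criterion on C1q also cut through neighbours. Another 152 cells met the rest of the rule and had 2 to 4 C1q UMIs, with Treml4 at 66.6 and Spn at 76.0 CPM. A further 464 cells had 5 or more C1q UMIs, with Treml4 at 26.1 and Spn at 17.6 CPM. Of the members themselves, 31.0% had 1 C1q UMI.

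The Ly6c2 message was graded among the members as well. After each member was thinned to 2000 UMIs, no Ly6c2 UMI was left in 50.1% (45.0 to 55.3) of the Vehicle members and 51.3% (46.1 to 56.5) of the Ribavirin members. With OVA this share was 66.2% (58.4 to 73.5) in the Vehicle-OVA library and 64.7% (57.0 to 71.9) in the Ribavirin-OVA library. With the thinning, 375, 160, 372 and 170 members entered. A Ly6c2 UMI was found in 81.2%, 48.7%, 79.9% and 61.4% of the thinned classical monocytes and in 13.7%, 11.1%, 11.2% and 7.83% of the thinned C1q macrophages, the class nearest to the background. The rule for classical monocytes, given below, uses Ly6c2, so its level there is in part chosen. In Vehicle, the members without a Ly6c2 UMI had Spn at 348, Cd36 at 162, Ccr2 at 577 and F13a1 at 29.3 CPM, and those with at least 1 had 115, 48.1, 1053 and 144 CPM. The same order of these 4 genes was found in the other 3 libraries. In Ribavirin-OVA, for example, the members without a Ly6c2 UMI had Spn at 582, Ccr2 at 209 and F13a1 at 40.9 CPM against 217, 792 and 333 CPM.

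The members were set beside classical monocytes and C1q macrophages of the same libraries. Classical monocytes were cells with Csf1r, with F13a1 or Vcan and with Ly6c2 or Ccr2, but with no UMI of Ace or Adgre4 (264, 165, 281 and 57 cells). C1q macrophages were cells with at least 10 C1q UMIs and Csf1r, again without Ace or Adgre4 (2727, 1091, 2052 and 936 cells). On a list of 27 nonclassical monocyte genes, 16 of the 26 with enough UMIs were at least 2-fold higher in members than in classical monocytes in 4 of 4 libraries and 0 were lower, and 15 were higher in unmarked members. Ace, Adgre4 and Ear2 are among them by the rule. The list was chosen with earlier results of these data known, so the count is a description and not an independent check of the label. Of all 5638 genes tested, 1.03% were higher and 0.231% lower in members, and in unmarked members 0.640% were higher and 0.194% lower.

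Beyond the rule, receptors and enzymes of nonclassical monocytes led the genes over classical monocytes in unmarked members. Treml4 was at 147, 195, 125 and 270 CPM in members and at 14.7, 7.45, 13.5 and 8.73 CPM in classical monocytes. Spn was at 174, 265, 165 and 373 against 25.8, 28.7, 32.4 and 64.6 CPM. Cd300e, an activating immunoglobulin-like receptor, was at 37.3, 71.9, 27.6 and 99.2 CPM in members and was listed at 0 in the classical monocytes of 3 libraries and at 0.900 CPM in those of Ribavirin. In each of these genes, all 4 member values lay above all 4 classical values.

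Eno3, a glycolytic enolase best known from muscle, was at 45.5, 94.0, 41.0 and 172 CPM in unmarked members against 1.05, 2.87, 1.80 and 5.24 CPM in classical monocytes. Itgal was at 502, 1086, 542 and 1385 against 167, 189, 148 and 283 CPM. S1pr5, a sphingosine-1-phosphate receptor of patrolling cells, was at 38.5, 44.0, 43.0 and 73.2 against 1.58, 1.72, 4.50 and 0 CPM. Bcl2, the survival factor, was at 28.7, 69.7, 30.8 and 95 against 6.84, 20.6, 11.7 and 14.0 CPM. The least log2 ratio over classical monocytes was 3.91 for Cd300e, 3.91 for Eno3, 3.52 for the transporter Slc12a2, 3.11 for Treml4, 3.00 for S1pr5, 2.73 for Cd36, 2.71 for Pglyrp1, 2.34 for the fatty acid binding protein Fabp4, 2.31 for Spn and 2.20 for Ceacam1.

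Among the transcription factors, Pou2f2 was the 1 of 19 tested that stood at least 2-fold over classical monocytes in 4 of 4 libraries, at 538, 785, 504 and 903 CPM in unmarked members against 177, 127, 204 and 213 CPM. Nr4a1 was at 831, 1392, 987 and 1761 against 465, 724, 566 and 775 CPM, which is under 2-fold in Vehicle, Vehicle-OVA and Ribavirin (log2 ratios 0.84, 0.94 and 0.80). Tppp3, a tubulin-polymerising protein named as a marker, separated the classes less, at 136, 242, 234 and 367 CPM in unmarked members against 100, 83.1, 146 and 182 CPM in classical monocytes. Cx3cr1 was at 260, 275, 185 and 251 CPM in unmarked members against 230, 67.1, 112 and 80.3 CPM in classical monocytes, and was higher in the C1q macrophages of Vehicle and Ribavirin, at 686 and 526 CPM.

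Lower in members than in classical monocytes were 3 of the 12 listed classical monocyte genes, among them F13a1 (coagulation factor XIII) and Fn1 (fibronectin). F13a1 is used by the rule for classical monocytes. Fn1, which it does not use, was at 222, 978, 272 and 568 CPM in unmarked members against 593, 3577, 884 and 2905 CPM. In unmarked members, other genes at least 2-fold lower in 4 of 4 libraries included Lmna, the receptor C3ar1 and the secreted protein Spp1. In all members this held for C3ar1 and Spp1 but not for Lmna. Marked cells were left out of the unmarked members but not out of the classical monocytes. The members lay between the classes in Ly6c2, at 1025, 501, 953 and 489 CPM, against 1867, 826, 1971 and 1238 CPM in classical monocytes and 177, 162, 126 and 75.6 CPM in C1q macrophages. The classical values are in part set by the rule, which uses Ly6c2. Of the members, 22.3% (19.9 to 24.9) had at least 2 UMIs of F13a1 plus Vcan.

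**Figure D2:**
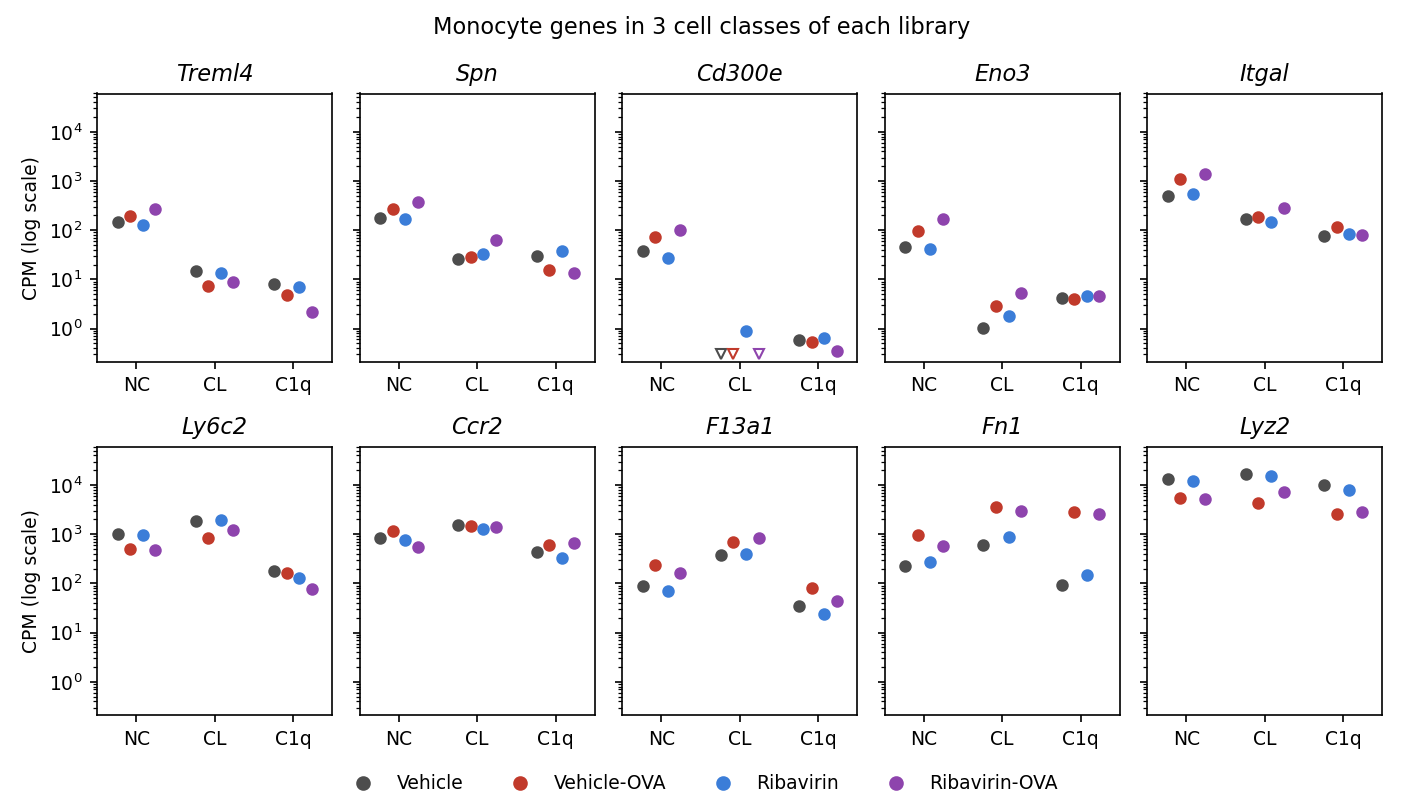
CPM (log scale) of 10 monocyte genes in unmarked members (NC), classical monocytes (CL) and C1q macrophages (C1q), 1 point for each of the 4 libraries, with open triangles for a level of 0. Treml4, Spn, Cd300e, Eno3 and Itgal are highest in NC, and Ly6c2, F13a1 and Fn1 are highest in CL, in every library, where the rule for CL uses Ly6c2, Ccr2 and F13a1 but not Fn1.

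Markers of other leukocytes were found in few members, apart from S100a8 and S100a9, which stand on the neutrophil list. The rule excludes cells with Cd3e, Cd79a, Cxcr2 or Siglech, so low counts of T and B cell genes are in part set by it. Of lists of 7 mast cell and basophil, 6 erythroid and 7 platelet genes, 1 to 3 genes each had a UMI in any library. At least 2 UMIs of Cd3d plus Cd3g were found in 11 members, of Cd79b plus Ms4a1 in 10, of the natural killer genes Ncr1, Klrb1c and Gzma in 6 and of the eosinophil genes Siglecf, Prg2 and Epx in 6. At least 2 UMIs of the dendritic cell genes Cd209a, Flt3 and Zbtb46 were found in 39 members (3.56%, 2.55 to 4.84). These 2 genes were common: 5 or more UMIs of S100a8 plus S100a9 were found in 11.8%, 70.4%, 21.6% and 12.6% of members. After thinning, S100a9 was found in 27.5%, 65.6%, 45.4% and 22.9% of members and in 23.1%, 66.5%, 39.0% and 30.9% of C1q macrophages. Whether these UMIs are the members' own message or free RNA of the library was not tested. All other kept cells had S100a9 at 7325, 16157, 10516 and 5098 CPM. How far this message enters the results below was not tested, and values without those cells are given beside the results that turned round.

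The share of members among kept cells was lower with OVA under vehicle and close to level under ribavirin. Members made up 1.48% (1.34 to 1.64) of Vehicle and 0.926% (0.789 to 1.08) of Vehicle-OVA, a log2 ratio of -0.68 (-0.96 to -0.41). Under ribavirin the share was 1.85% (1.67 to 2.04) without OVA and 1.98% (1.70 to 2.30) with it, a log2 ratio of 0.10 (-0.17 to 0.36). The ribavirin libraries had the larger share both without OVA (log2 ratio 0.32, 0.11 to 0.53) and with OVA (1.10, 0.78 to 1.42). A share also moves with the number of other cells, so fewer members and more of other cells cannot be told apart here.

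The OVA ratios rested on where the rule was set. With at least 3 UMIs of Ace plus Adgre4, the vehicle pair was at 1.03% and 0.743%, a log2 ratio of -0.48 (-0.79 to -0.17). With at least 4 UMIs of Ace plus Adgre4, the shares were 0.692% and 0.652% in the vehicle pair (log2 ratio -0.09) and 0.898% and 1.47% in the ribavirin pair (0.72). With every kept cell thinned to 2000 UMIs before the rule was applied, they were 0.679% and 0.615% (-0.14), and 0.855% and 1.49% (0.80). The vehicle pair was thus lower with OVA at 3 UMIs and close to level at 4 and after thinning. Ribavirin-OVA had the larger share of the OVA libraries under all 13 other settings tried for it, with log2 ratios from 0.61 to 1.28. Of members plus classical monocytes, members made up 59.1% (55.2 to 63.0), 49.5% (44.0 to 55.1), 57.2% (53.3 to 61) and 75.4% (69.4 to 80.8), and on this basis ribavirin without OVA gave a log2 ratio of -0.05.

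**Figure D3:**
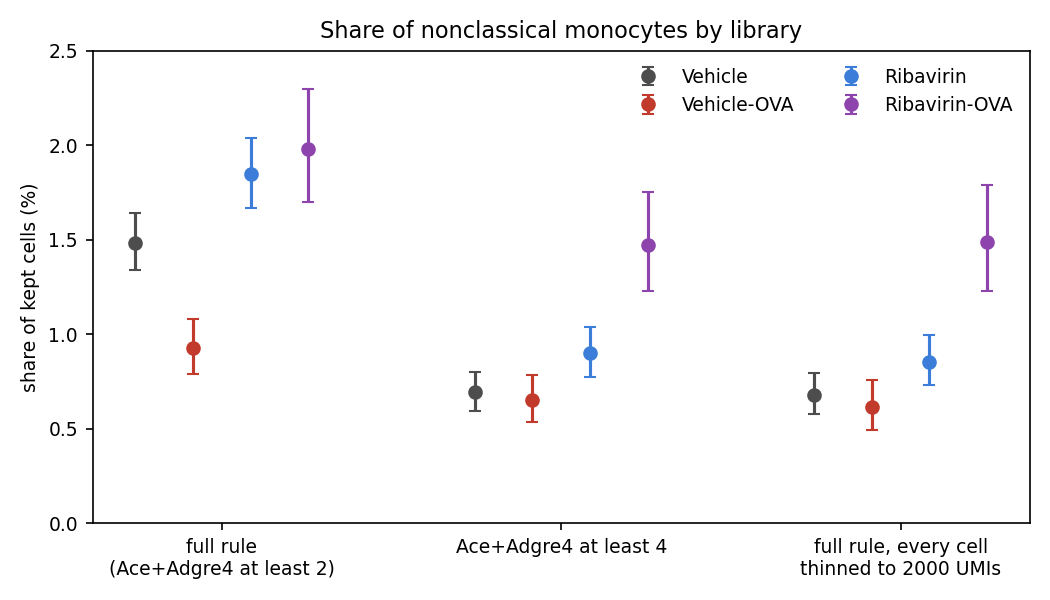
Share of kept cells (%) in each library under the full rule, with at least 4 Ace plus Adgre4 UMIs, and with all cells thinned to 2000 UMIs first, with exact 95% intervals of counting error. Ribavirin-OVA has the highest share in each case, at 1.98%, 1.47% and 1.49%, and Vehicle-OVA the lowest, at 0.926%, 0.652% and 0.615%.

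OVA was compared with no OVA within vehicle and within ribavirin, 2 pairs that share no library. Ratios are log2 ratios of CPM with a pseudocount of 1 CPM, for genes with at least 20 UMIs in a pair, and a gene was counted when it differed at least 2-fold. In all members 11.3% of genes were higher and 3.85% lower with OVA under vehicle, and 11.8% higher and 4.12% lower under ribavirin. In both pairs 382 of 8946 genes (4.27%) were higher and 134 (1.50%) lower. In unmarked members 8.73% were higher and 4.10% lower under vehicle, 8.69% higher and 4.42% lower under ribavirin, and 2.50% higher and 1.66% lower in both. The median gene of unmarked members stood at 0.27 and 0.25, so that ratios near these values are level with the other genes. Another scaling, TMM, moved the OVA ratios of all members by 0.33 under vehicle toward lower values, to a median of -0.02, and the split of calls with it. Under TMM 39.5% of the counted genes of the vehicle pair were higher, against 74.6% without it, and under ribavirin 51.8% against 74.1%.

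In all members the 12 genes that stood highest in both OVA pairs were led by Chil4, Krt19 and Gabrp, genes of the epithelium, with mucins (Muc2, Muc4, Muc20) among them. In unmarked members the 12 highest were other genes. Chil4, a chitinase-like protein of the airway, was at 0, 646, 2.16 and 4219 CPM in all members and at 0, 4.40, 2.37 and 105 CPM in unmarked ones, against 9.94, 250, 193 and 4395 CPM in all other kept cells. Its level in the OVA libraries was thus lower without the marked cells, but was still higher with OVA in each pair. Unless stated otherwise, the values below are those of unmarked members.

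MHC class II genes, which present peptides to CD4 T cells, were lower with OVA. Of 12 listed genes 6 were at least 2-fold lower in both pairs and 0 higher in both, in all members and in unmarked ones. Of all genes 1.50% and 1.66% were lower in both pairs in these cell sets. Cd80, a costimulatory ligand on the same list, was higher under vehicle alone. H2-Aa was at 3487 CPM in Vehicle, 1321 in Vehicle-OVA, 3047 in Ribavirin and 1119 in Ribavirin-OVA, a fold of 0.379 (0.360 to 0.399) under vehicle and 0.367 (0.348 to 0.388) under ribavirin. Both OVA libraries lay below both libraries without OVA. H2-Eb1 gave the lowest ratios of the list, at 2558, 600, 2240 and 476 CPM (folds 0.234 and 0.213). Cd74, the invariant chain, was at 7187, 2826, 6225 and 2384 CPM, and H2-DMa, H2-Ab1 and H2-DMb2 were lower as well. Ciita, the transactivator of these genes, was at 47.1, 33, 34.7 and 29.6 CPM, with folds of 0.701 (0.485 to 0.998) and 0.852 (0.575 to 1.24).

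The MHC class II difference was found in other cells too. In classical monocytes H2-Aa was at 4248, 1387, 2700 and 1375 CPM, in C1q macrophages at 10584, 3252, 9643 and 3834 CPM, and in all other kept cells at 3957, 1164, 2922 and 1380 CPM. The median log2 ratio of the 12 genes was -0.96 and -1.29 in unmarked members, -1.02 and -0.99 in classical monocytes, and -1.23 and -0.64 in all other cells. The share of the members' ratio that comes from free RNA of the library was not tested.

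Genes of the nonclassical list were higher with OVA more often than all genes under ribavirin, and close to the share of all genes under vehicle. In unmarked members 3 of 26 (Itgal, Eno3 and Dusp16) were at least 2-fold higher under vehicle and 11 of 26 under ribavirin, with 0 lower in either pair. In all members the counts were 2 and 8. Without Ace, Adgre4, Ear2 and Cx3cr1, which chose the members, 3 of 22 (13.6%) were higher under vehicle and 9 of 22 (40.9%) under ribavirin, beside 8.73% and 8.69% of all genes in unmarked members. In all members these were 2 (9.09%) and 7 (31.8%), beside 11.3% and 11.8%. The median log2 ratio of the 22 genes was 0.55 and 0.96 in unmarked members and 0.16 and 0.26 in classical monocytes. Itgal, at 502, 1086, 542 and 1385 CPM, gave folds of 2.16 (2.00 to 2.33) and 2.56 (2.39 to 2.74). Eno3 gave folds of 2.07 (1.59 to 2.69) and 4.20 (3.33 to 5.34).

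The 11 genes under ribavirin were Ace, Ear2, Treml4, Spn, Itgal, Eno3, Dusp16, Cd36, Cd300e, Lair1 and Klf2. Ace and Ear2 also chose the members. Cd300e gave a fold of 3.59 (2.68 to 4.86) under ribavirin and 1.93 (1.44 to 2.60) under vehicle. Treml4 gave 2.17 (1.86 to 2.52) and 1.32 (1.12 to 1.55), and Klf2, a factor of quiescence and shear response, 2.02 (1.91 to 2.14) and 1.42 (1.33 to 1.52). In all members 5 of the list were higher under ribavirin with at least 4 Ace plus Adgre4 UMIs, and 3 with TMM, in place of 8. The median of Ace plus Adgre4 UMIs, which sets how far a member lies along the gradient above, was 3 in Ribavirin and 9 in Ribavirin-OVA, and its part in these ratios was not tested.

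**Figure D4:**
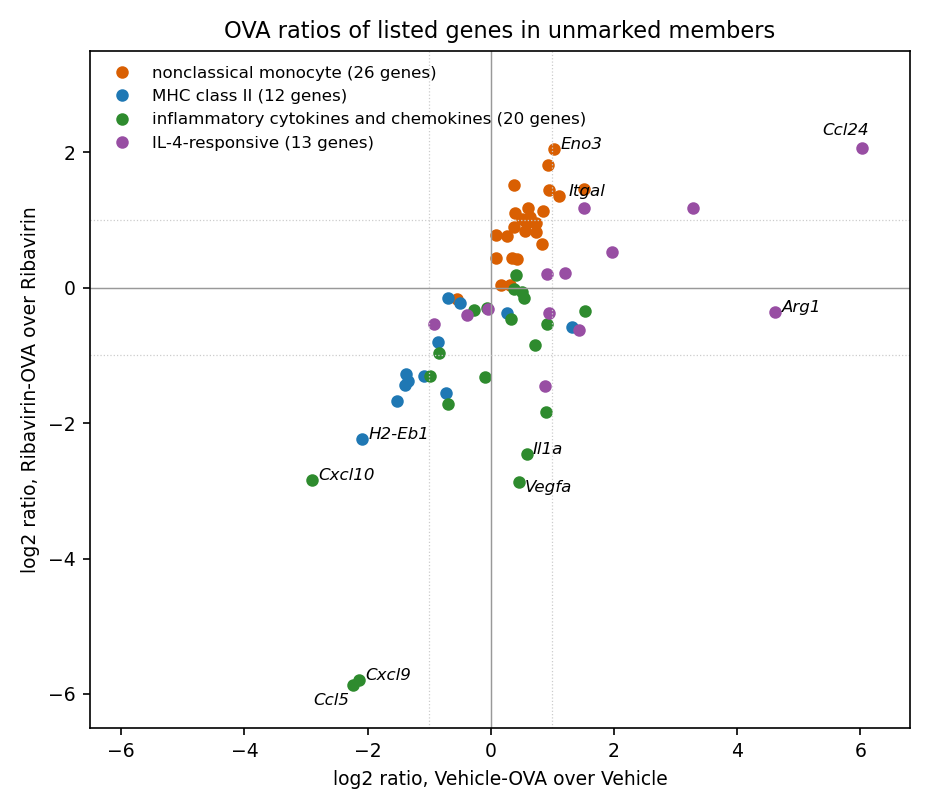
Log2 ratio of OVA over no OVA in unmarked members, under vehicle (horizontal) and under ribavirin (vertical), for genes of 4 lists with at least 20 UMIs in both pairs, with dotted lines at 2-fold. MHC class II genes such as H2-Eb1 are low in both pairs, nonclassical genes are above 0 in both except Gngt2 (-0.55 and -0.17), and Il1a and Vegfa are low only in the ribavirin pair.

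Classical and lineage genes moved in both directions. F13a1, at 88.5, 236, 68.6 and 164 CPM and thus higher with OVA, gave folds of 2.66 (2.23 to 3.18) and 2.39 (1.95 to 2.92). Vcan (versican) and Fn1 were also at least 2-fold higher in both pairs. Ly6c2 went the other way, at 1025, 501, 953 and 489 CPM, with folds of 0.489 (0.449 to 0.533) and 0.513 (0.471 to 0.559). Of 12 lineage genes 2 were at least 2-fold lower in both pairs, the lysozyme Lyz2 (13198, 5440, 11898 and 5178 CPM) and Aif1 (556, 225, 469 and 179 CPM). Lyz2 was lower in the classical monocytes too, at 16551, 4355, 15512 and 7127 CPM.

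Genes of survival divided. Bcl2 gave OVA folds of 2.43 (1.77 to 3.36) and 3.09 (2.32 to 4.13). By contrast, 4 of the 10 listed genes were at least 2-fold lower in both pairs, beside 1.66% of all genes. These were Bax, which promotes cell death, at 193, 82.2, 175 and 76.0 CPM, and the near-identical anti-apoptotic genes Bcl2a1a, Bcl2a1b and Bcl2a1d. Bcl2a1b was at 485, 202, 466 and 96.4 CPM, but reads of these copies can be split among them, so their single values are uncertain. Bax was lower in all other kept cells as well, at 145, 58.3, 118 and 55.2 CPM, while Bcl2 was at 36.7, 43.4, 35.6 and 74.3 CPM there.

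Of 20 inflammatory cytokine and chemokine genes tested in both pairs, 3 were at least 2-fold lower with OVA in both (1.66% of all genes were) and 0 higher. In all members they were 4 of 20, beside 1.50%. The median log2 ratio of the list was 0.36 under vehicle and -0.91 under ribavirin, so the list as a whole was not lower under vehicle. The 3 genes, Cxcl9, Cxcl10 and Ccl5, encode chemokines that attract T cells. Cxcl9 was at 405, 91.0, 249 and 3.52 CPM in unmarked members. All members together, the marked ones included, held 991, 124, 640 and 5 UMIs of it. Cxcl10 was at 435, 57.3, 219 and 29.6 CPM, with folds of 0.132 (0.103 to 0.166) and 0.135 (0.0964 to 0.185). Ccl5 was at 973, 205, 594 and 9.15 CPM. In classical monocytes Cxcl10 was at 385, 371, 734 and 337 CPM, so that the vehicle pair was level there. Of 27 interferon-stimulated genes tested in both pairs 3 were at least 2-fold lower in both pairs (Isg15, Ifitm3 and Ifi27l2a), and 0 were higher in both. Isg15, an interferon-induced ubiquitin-like protein, was at 265, 126, 220 and 78.1 CPM in members and at 440, 451, 342 and 90.8 CPM in classical monocytes.

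Of the genes that respond to interleukin 4, 5 had enough UMIs to be set against classical monocytes, and 0 were at least 2-fold higher or lower in 4 of 4 libraries (median log2 ratio -0.52). Ccl24 and Arg1 of this list, and Spp1, which is not on it, were chosen after their values were seen. Within the OVA libraries they were lower in members than in classical monocytes. Ccl24, an eosinophil attractant, was at 2.05, 198, 5.13 and 24.6 CPM in unmarked members, at 1.58, 2158, 7.20 and 831 CPM in classical monocytes and at 2.29, 2483, 8.12 and 1999 CPM in C1q macrophages. Arg1, arginase, was at 11.5, 305, 57.2 and 44.3 CPM in members against 6.84, 3300, 108 and 1538 CPM in classical monocytes. Spp1 was at 12.3, 187, 6.71 and 27.4 against 33.1, 3955, 33.8 and 1114 CPM. Without OVA, Ccl24 was at about the same low level in members and classical monocytes of Vehicle. With OVA the members had lower levels of these 3 genes than both other classes of the same library, with log2 ratios over classical monocytes of -3.44 and -5.02 for Ccl24, -3.43 and -5.08 for Arg1 and -4.39 and -5.29 for Spp1 in Vehicle-OVA and Ribavirin-OVA.

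Of the 13 interleukin 4 genes tested in unmarked members, 7 were at least 2-fold higher with OVA under vehicle, beside 8.73% of all genes. Under ribavirin 3 were higher, beside 8.69%, and 1 was lower. Ccl24, Cdh1 and Pdcd1lg2 were higher in both pairs. The median log2 ratio of the list was 1.20 under vehicle and -0.31 under ribavirin, so the list as a whole was not higher in these members under ribavirin. For the same genes it was 2.11 and 1.32 in classical monocytes and 1.54 and 1.49 in C1q macrophages. All other kept cells had 1.82 and 1.56, so the list was higher under ribavirin outside the members. Mrc1, the mannose receptor of macrophages, was at 16.0, 44.8, 21.3 and 13.4 CPM in members and at 292, 1402, 275 and 1518 CPM in C1q macrophages. Since Ccl24 stood at 808 and 477 CPM in all other kept cells of Vehicle-OVA and Ribavirin-OVA, free RNA can add to the members' values, and its part was not tested.

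**Figure D5:**
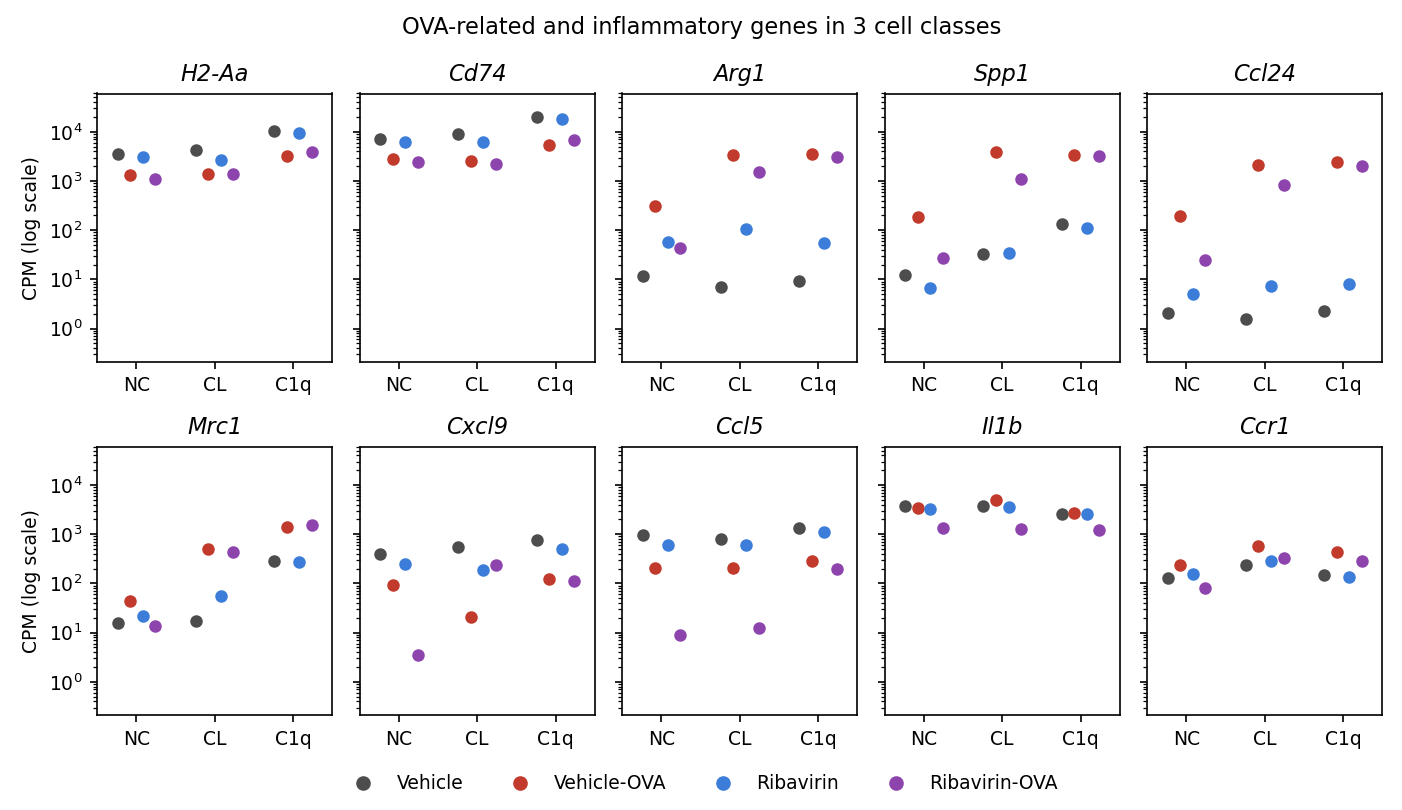
CPM (log scale) of 10 genes in unmarked members (NC), classical monocytes (CL) and C1q macrophages (C1q), 1 point for each library. H2-Aa and Cd74 are lower in the OVA libraries in all 3 classes, while Arg1, Spp1 and Ccl24 reach 831 CPM or more with OVA in CL and C1q and stay at or under 305 CPM in NC.

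Of the 3 endothelial genes tested in both pairs, Pecam1 was higher with OVA in both, and 0 of 3 were in all members. Thbd, thrombomodulin, is not on that list and was at 54.5, 186, 54.4 and 169 CPM, with folds of 3.42 (2.76 to 4.25) and 3.10 (2.51 to 3.85). Pecam1, the adhesion molecule CD31, was at 25.0, 69.7, 35.9 and 86.6 CPM. In classical monocytes Thbd was at 38.9, 60.2, 40.5 and 69.8 CPM. Cd300ld, a paired receptor of the CD300 family, was at 92.2, 229, 96.3 and 241 CPM. The scavenging receptor Igf2r was at 5.74, 19.1, 4.73 and 17.6 CPM in unmarked members. All members together, the marked ones included, held 21, 45, 24 and 53 UMIs of it, so the unmarked levels rest on fewer UMIs.

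The 12 genes with the largest smaller ratio in unmarked members that were higher with OVA included Ccl24, Ap1s3, Spp1, Prkdc, Rbm12b2, Gm26853, Hspa1b, Retnlg, Clu, Thbd and Serinc5. Clu (clusterin) was at 2.46, 16.9, 7.50 and 25.3 CPM in unmarked members against 73.2, 594, 337 and 997 CPM in all other kept cells, and Retnlg, a neutrophil gene, at 11.9, 47.0, 14.2 and 47.2 against 198, 1618, 454 and 616 CPM. The ratio of Clu under vehicle turned round when members of 5 or more S100a8 plus S100a9 UMIs were left out, from 2.66 in all members to -2.98. The 12 that were lower were Gm17056, Cxcl10, Gm14744, Lyz1, Ccl5, Cxcl9, H2-Eb1, Lcn11, Dnase1l3, Hist1h1e, Gzma and Gm26522. Lcn11 is a secretory lipocalin and Gzma a granzyme of natural killer cells, and both were higher in the other kept cells, Lcn11 at 916, 104, 4159 and 2066 CPM and Gzma at 175, 81.7, 138 and 140 CPM.

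The stress granule gene G3bp1, which the study is about, was at 102, 139, 94.3 and 134 CPM in members, with folds of 1.37 (1.13 to 1.66) and 1.42 (1.17 to 1.72). It was at 99.4, 133, 79.7 and 126 CPM in classical monocytes, close to the members in each library. Lrp1, an efferocytosis receptor, was at 255, 385, 270 and 405 CPM. Of the 14 stress granule and efferocytosis genes tested, 1 (Igf2r) was at least 2-fold higher in both pairs, beside 2.50% of all genes.

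Ribavirin was compared with vehicle without OVA and with OVA, again 2 pairs that share no library with each other, although each library also stands in an OVA pair. Without OVA few genes differed, 1.80% higher and 1.67% lower of 9319 in all members, and 1.15% higher and 0.936% lower in unmarked ones. With OVA 4.57% were higher and 3.60% lower in all members, and 2.14% higher and 3.11% lower in unmarked ones. In both pairs 45 genes (0.515%) were higher and 12 (0.137%) lower in all members, and 26 (0.326%) and 4 (0.0501%) in unmarked ones.

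With OVA, inflammatory cytokines and chemokines were lower under ribavirin. Of the 21 tested in all members 11 were at least 2-fold lower, beside 3.60% of all genes, and 0 higher. In unmarked members 8 of 20 were lower, beside 3.11% of all genes. Without OVA 1 of 20 was lower in all members and 0 of 20 in unmarked ones. Il1b was at 3757, 3494, 3293 and 1321 CPM, a fold of 0.378 (0.358 to 0.399) with OVA and 0.877 (0.851 to 0.903) without. Ribavirin-OVA was thus the 1 library of 4 with low Il1b.

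Il1a was at 65.5, 98.4, 77.7 and 13.4 CPM, Vegfa at 49.2, 67.5, 73.4 and 9.15 CPM, and the neutrophil attractant Cxcl2 at 677, 1252, 1048 and 293 CPM. Tnf, at 39.7, 38.2, 46.9 and 38.0 CPM, did not differ beyond counting error (fold 0.996, 0.668 to 1.49, with OVA). In the classical monocytes of Vehicle-OVA and Ribavirin-OVA, Il1b was at 4878 and 1276 CPM, and in all other kept cells at 7908 and 1701 CPM. The median log2 ratio of the list was -0.84 in unmarked members, -1.82 in classical monocytes and -1.42 in all other cells. With members of 5 or more S100a8 plus S100a9 UMIs left out, 7 of the list were lower in place of 11, and the log2 ratio of Il1b was -1.50 in place of -1.68.

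Chemoattractant receptors followed the same order. With OVA 7 of 12 tested were at least 2-fold lower under ribavirin in all members, beside 3.60% of all genes, and 0 were higher. In unmarked members 6 of 11 were lower (Ccr1, Ccr2, Fpr1, Fpr2 and Ccrl2 among them), beside 3.11% of all genes, and 0 were higher. Ccr1 was at 127, 234, 154 and 80.2 CPM, a fold of 0.343 (0.274 to 0.426) with OVA, and Ccr2 at 854, 1152, 764 and 538 CPM, a fold of 0.468 (0.428 to 0.510). The median log2 ratio of the list was -1.10 in unmarked members and -0.93 for the same genes in classical monocytes, so receptors were lower there as well. Ccr2 was at 1522, 1463, 1266 and 1433 CPM in classical monocytes, but the classical rule uses Ccr2, so its level there is in part chosen.

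C3ar1, the receptor of complement fragment C3a, was at 13.5, 37.4, 19.7 and 3.52 CPM in unmarked members, and was thus highest in Vehicle-OVA and lowest in Ribavirin-OVA, whereas classical monocytes had 57.8, 220, 54.0 and 150 CPM. The interleukin 4 genes Ccl24, Arg1 and Mrc1 were also lower in Ribavirin-OVA than in Vehicle-OVA, with folds of 0.124 (0.0848 to 0.177), 0.146 (0.110 to 0.190) and 0.299 (0.168 to 0.507). For Arg1 the log2 ratio in all members was -2.59, and without members of 5 or more S100a8 plus S100a9 UMIs it was -0.95. That setting left out 114 of 162 members of Vehicle-OVA and 22 of 175 of Ribavirin-OVA. The part of those cells in this ratio was not tested.

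In both ribavirin pairs the genes highest over vehicle in unmarked members were 5430401F13Rik, BC051076, Gm14744, Mup4, Obp1b and Lcn11, of which Mup4, Obp1b and Lcn11 belong to the secreted lipocalins. Obp1b, an odorant-binding protein, was at 52.8, 16.1, 793 and 368 CPM in unmarked members, at 30.0, 8.60, 664 and 335 CPM in classical monocytes and at 2914, 569, 14849 and 9279 CPM in all other kept cells, so the same order of libraries was found in every class. The 4 genes lower in both pairs were Saa3, AW112010, Mrps22 and Plxna1. Saa3, an acute-phase serum amyloid, was at 381, 532, 91.1 and 95.7 CPM in members, with folds of 0.239 (0.206 to 0.276) without and 0.180 (0.149 to 0.216) with OVA. The second of these turned round when members of 5 or more S100a8 plus S100a9 UMIs were left out, from a log2 ratio of -1.36 in all members to 0.44. In classical monocytes Saa3 was at 271, 1936, 246 and 76.8 CPM, so that the pair without OVA was level there, and in C1q macrophages at 322, 740, 357 and 262 CPM. AW112010, an interferon-inducible transcript, was at 1015, 426, 404 and 138 CPM, and was lower both with OVA and with ribavirin.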

How the data were processed

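Single-cell 3′ libraries of CD45-positive nasal mucosa cells were counted by the authors, and the deposited matrices hold raw UMI counts of 27998 genes per barcode (Cell Ranger 5.0.0 and mm10 are named in the submitters' processing notes). No library was normalised before deposit. Counts of members were summed per library (1611861 to 2775521 UMIs) and compared as log2 ratios of CPM with a pseudocount of 1 CPM, over genes with at least 20 UMIs in a pair, at 2-fold. With 1 library per group no test was run. Intervals were exact (Clopper-Pearson, Poisson or conditional binomial, 95%). Against classical monocytes, genes needed 50 UMIs in every library. Doublets were scored with Scrublet in scanpy 1.11.5, and none were removed. TMM factors came from edgeR 4.0.16, and sums were tested on simulated data. Named were the rule genes, listed genes, and the 12 (OVA), 15 (classical) or 6 (ribavirin) genes of largest least ratio each way. Members and the 32 lists were chosen with earlier results of these data known. Of the listed genes 5 were not analysed here, and 121 identifiers that share a symbol matched no list. Some genes that the rule names are not reported here. Alternatives varied the rule, cell filters, pseudocount, UMI minimum, scaling and the cells left out. The alternatives without marked members, with over 20000 UMIs left out, and with at least 4 Ace plus Adgre4 UMIs for the genes were chosen after seeing the data.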

Additional observations from a re-analysis of the deposited data

Results flagged for a closer look

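The log2 ratio of the member share with OVA was -0.68 (-0.96 to -0.41) under vehicle and 0.10 (-0.17 to 0.36) under ribavirin. The signs are opposite, but the second interval holds 0, so an opposite movement is not shown, and the difference between the ratios was not tested. In all members 5 genes differed at least 2-fold with OVA in opposite directions, and these differences were not tested either. Fpr1, a receptor for formylated peptides, had log2 ratios of 1.52 under vehicle and -1.03 under ribavirin, and in unmarked members 1.50 and -0.85. C3ar1 had 1.26 and -1.21, and in unmarked members 1.40 and -2.20. Il1a had 1.13 and -2.76, and in unmarked members 0.58 and -2.45. The cytokine Il6 had 1.10 and -1.34, and in unmarked members 0.71 and -0.85. Mgl2, a lectin of macrophages and dendritic cells, had 1.33 and -1.69, and in unmarked members 0.88 and -1.45. Without members of 5 or more S100a8 plus S100a9 UMIs, Mgl2 was at -4.01 and -1.61 and thus lower in both pairs, and Il6 at 0.04 and -0.99. On that basis the ratios of Fpr1 (1.85 and -1.52), C3ar1 (1.74 and -1.30) and Il1a (1.06 and -3.38) kept opposite signs.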

How the results depend on the processing

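No paired analysis was possible because each group has 1 library and the labels give no replicate numbers shared between groups. With 1 library per group, the groups cannot be told apart from their libraries. Results are those of all members unless stated. The cause of each change was not tested, except where the setting changes how many genes enter.

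Log2 ratios of the member share moved with the rule. With OVA under vehicle the ratio was -0.20 with at least 1 UMI of each of Ace and Adgre4, -0.09 with at least 4 UMIs of both together, -0.14 in thinned cells and -0.26 as a share of members plus classical monocytes. With OVA under ribavirin it was -0.27 with at least 1 UMI, 0.49 with 1 UMI of each, 0.43 with at least 3, 0.72 with at least 4, 0.80 in thinned cells and 0.40 as a share of both classes. On that last basis ribavirin gave -0.05 without OVA, a change of sign, and 0.61 with OVA.

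Counts of genes at least 2-fold higher and lower are given with OVA under vehicle, OVA under ribavirin, ribavirin without OVA and ribavirin with OVA. A pseudocount of 10 CPM gave 357 and 154, 399 and 183, 46 and 38, and 166 and 151, with 117 and 68 in both OVA pairs and 21 and 4 in both ribavirin pairs. It also left 8 genes lower than in classical monocytes and 5 interleukin 4 genes higher with OVA under vehicle. With no minimum of UMIs, which adds genes, the counts were 2063 and 872, 2417 and 820, 542 and 500, and 1563 and 940, with 828 and 230 in both OVA pairs and 136 and 53 in both ribavirin pairs. A minimum of 10 UMIs gave 270 and 251 for ribavirin without OVA, 718 higher with OVA and 19 lower in both ribavirin pairs. A minimum of 50 UMIs gave 613 and 219 under vehicle, 593 higher under ribavirin, 70 and 58 for ribavirin without OVA, 170 and 184 with OVA, 192 higher in both OVA pairs, and 27 and 4 in both ribavirin pairs.

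TMM gave 490 and 752 with OVA under vehicle, 738 and 687 under ribavirin, 201 and 312 in both, and 3 nonclassical genes higher under ribavirin. Mean CPM per cell gave 20 genes lower than in classical monocytes. Without marked members, 746 were higher with OVA under ribavirin, 206 in both OVA pairs, 101 and 82 higher and lower for ribavirin without OVA, 173 higher with OVA, 26 and 4 in both ribavirin pairs, and 33 higher than in classical monocytes. Without members over 20000 UMIs, 706 were higher with OVA under ribavirin, 185 in both OVA pairs and 175 for ribavirin with OVA, 93 were lower for ribavirin without OVA, and 13 nonclassical genes were higher.

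Without members of 5 or more S100a8 plus S100a9 UMIs, 825 genes were lower with OVA under vehicle, 221 higher in both OVA pairs, 217 lower for ribavirin with OVA, 5 lower in both ribavirin pairs, and 7 cytokines lower for ribavirin with OVA. With at least 3 Ace plus Adgre4 UMIs, 209 were higher for ribavirin with OVA, and 26 and 23 higher and lower in both ribavirin pairs. With at least 4, 729 were higher with OVA under ribavirin, 228 in both OVA pairs, 176 for ribavirin with OVA and 25 in both ribavirin pairs, with 5 nonclassical genes higher and 2 survival genes lower. A mitochondrial limit of 5% gave 209 higher in both OVA pairs and 2 survival genes lower.

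Some genes changed sign. Without marked members, Krt18 with OVA under ribavirin was -0.22, and without members over 20000 UMIs -1.04, where Krt8 was -0.54 and, under vehicle, -2.40, with Ltf at -1.71 and Lmna at -0.08. Without the members high in S100a8 and S100a9, ribavirin with OVA gave 0.83 for Cd40, 0.44 for Saa3 and 0.71 for Spp1, and OVA under vehicle gave -4.64 for Krt8, -2.82 for Ltf, -4.01 for Mgl2, -2.98 for Clu and -2.22 for Lmna. With at least 3 and at least 4 Ace plus Adgre4 UMIs, ribavirin with OVA gave -2.98 and -2.76 for Chil4 and -2.48 and -2.57 for Alox15, and ribavirin without OVA -0.31 and -0.94 for Retnlg. With at least 4, Saa3 with OVA under ribavirin was -1.44, and with a mitochondrial limit of 5% Krt8 under vehicle was -0.80. Of the other comparisons of a main result with a setting, 230 kept their direction and stayed within the spread or within 1.5 times the count.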

Other observations

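Lists not described above gave these counts in unmarked members. Of the adhesion and crawling genes, Itgal and Spn were at least 2-fold over classical monocytes in 4 of 4 libraries, and Itgal and Pecam1 were higher with OVA in both pairs, 2 of 16 genes tested. Itgb2, which encodes the partner chain of Itgal in LFA-1, was at 489, 611, 467 and 573 CPM in members and at 313, 436, 345 and 375 CPM in classical monocytes. Heg1, a membrane protein known from vessel development, was at 32.0, 64.6, 29.6 and 70.4 CPM in members against 10.5, 9.17, 2.70 and 8.73 CPM in classical monocytes.

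Of the Fc and phagocytic receptor genes, Cd36 and Cd300ld stood over classical monocytes, 2 of 18 tested. Fcgr4, the activating Fc receptor often used to mark nonclassical monocytes, was at 276, 349, 234 and 318 CPM in members, at 191, 179, 170 and 103 CPM in classical monocytes and at 246, 268, 234 and 242 CPM in C1q macrophages, so that members and C1q macrophages were close.

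Of 16 lipid and lysosome genes tested with OVA, Ctsb (cathepsin B) was higher in both pairs and Apoe lower in both. Ctsb was at 1027, 2099, 1017 and 2099 CPM in members and at 1747, 6129, 1741 and 7621 CPM in C1q macrophages. Apoe was at 4146, 1722, 4122 and 1418 CPM in members and at 33878, 10879, 34038 and 12465 CPM in C1q macrophages.

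Of 14 glycolysis and hypoxia genes 0 were at least 2-fold higher or lower with OVA in both pairs. Ldha (lactate dehydrogenase) was at 287, 322, 271 and 255 CPM in members and at 295, 618, 327 and 344 CPM in classical monocytes. Of 20 immediate early and dissociation genes, Hspa1b alone was at least 2-fold higher in both OVA pairs, at 6.15, 22.8, 5.52 and 29.6 CPM, with uncertain counts because Hspa1a is a near-identical copy, and Fos was at 3015, 2679, 3008 and 2347 CPM. Cell cycle genes were rare, and 42 of the 1094 members had at least 2 UMIs of Mki67 plus Top2a.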
